A study of Homo sapiens with 8 samples.

Results

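Of the 153624 peaks in a list of poly(A) 3′ ends from neuroblastoma cells, 508 (0.331%) lay on unplaced and unlocalised contigs, and these are described here. They were taken from the sequence name of each peak, as all peaks that were neither on chromosomes 1 to 22, X or Y (153021 peaks), nor on the mitochondrial genome (8 peaks), nor on the ERCC spike-in sequences (87 peaks). The libraries were made from a human neuroblastoma line, Kelly, whose MYCN gene is amplified, and from its derivative Kelly E9R, which grew out under rising doses of the CDK12 inhibitor E9, in which the cysteine of CDK12 that THZ531 binds is mutated. THZ531 inhibits CDK12 and CDK13, kinases of transcription, by binding them covalently. There were 4 groups, Kelly_DMSO, Kelly_THZ531_6h, Kelly_E9R_DMSO and Kelly_E9R_THZ531_6h, of 2 libraries each, and per the labels the dose was 400 nM and the time 6 h, with the solvent DMSO as the control. All cells were grown in RPMI medium, and the RNA of all 8 libraries was extracted with TRIzol and treated with DNase I.

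Reads of all samples were merged before the peaks were called. The list therefore has 0 columns of values per sample, and THZ531 and DMSO, or the parent and the resistant line, could not be compared. The depth of each library is unknown from the list, no value has a replicate, and each interval on a share is a 95% Wilson interval that covers counting error only. Beside a share of 0, the limit given is 3 counts of the total. The list also has 0 peaks with a strand, so that a sequence feature was read on both strands unless a strand is named.

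A contig is a stretch of assembled sequence that has not been put into a chromosome. An unlocalised contig is known to belong to a chromosome but not where in it, and an unplaced contig is not tied to any chromosome. Many hold duplicated sequence from near centromeres and from the short arms of the acrocentric chromosomes, where the ribosomal DNA repeats lie. Each ribosomal repeat has a part that RNA polymerase I transcribes into a 45S precursor, which holds the 18S, 5.8S and 28S ribosomal RNAs between spacers that are cut away, and a long intergenic spacer. Mature ribosomal RNA carries no poly(A) tail, whereas the library kit primed reverse transcription with oligo(dT), which can anneal to a tail or to a run of A within a transcript. Most messenger RNAs are cleaved a short distance after a poly(A) signal, of which AATAAA is the commonest form.

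The first set of sequences gives the 30 bases that follow the 3′ end of the 3 peaks with the highest −log10 q on each of KI270733.1 and GL000220.1. They are read on the strand of the ribosomal RNAs (GRCh38) and show whether a run of A followed the end of the peak. In a wide peak the summit can lie far from that end, as in the 5.8S peak, with its summit at 173968 and its end at 174211. Sequence nearer to the summit was not searched for A, so that priming there was not tested. Capitals mark runs of at least 4 A, and none of the 6 stretches has one on this strand. On the opposite strand, A-rich sequence (a run of 6 A, or 7 A among 10 neighbouring bases) followed both peaks of the intergenic spacer.
KI270733.1:174212-174241, after the peak in 5.8S: agacccggcggcgtccgccctccccttgcc
KI270733.1:167924-167953, after a peak in the 5′ external spacer: ggcggtgcgtgtgggaaggcgtggggtgcg
KI270733.1:123821-123850, after a second peak in the 5′ external spacer: ctcgacggggttgggggggagaagcgaggg
GL000220.1:147175-147204, after a peak in the intergenic spacer: tcttggctcaccgcaccttccgcctcccgg
GL000220.1:112770-112799, after the peak in internal spacer 2: ccgccgctcccgcgcccctcctcctccccg
GL000220.1:146667-146696, after a second peak in the intergenic spacer: ctttcttgcttgctttcttgcttgcttgct

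The second set comes from the pair of non-ribosomal peaks among the 10 strongest contig peaks that had the same closest match on chromosome 21. For these peaks, on GL000205.2 and GL000195.1, the 30 bases after the 3′ end are given, with runs of at least 4 A in capitals.
GL000205.2:130323-130352, minus strand, after the 3′ end: caagAAAAAgAAAAAAAAgaagcacttttg
GL000195.1:148366-148395, plus strand, after the 3′ end: gAAAAAgAAAAAAAAgaagcacttttgtct
The stretches held 60% A and 53.3% A over the 30 bases. AATAAA also lay in the 100 bases before the 3′ end of both peaks, on the same strand as these runs of A. The strongest peak outside the ribosomal contigs, on KI270744.1 at 107034 to 107373, had no A-rich sequence on either strand.

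The third set shows AATAAA at peaks whose closest chromosomal copy was the annotated end of a protein-coding gene, on the strand of that gene. MRPL23, which encodes a protein of the mitochondrial ribosome, and NBPF1, of the neuroblastoma breakpoint family, had at least 3 peaks each. DGCR6, a gene of the DiGeorge region, had fewer and was chosen after its values were seen.
KI270721.1:11759-11788, copy of MRPL23, plus strand: tcccgacacctaAATAAAagtcttgctgca
KI270711.1:4509-4538, copy of NBPF1, minus strand: ctgatgtgaattAATAAAaacatttccatt
KI270734.1:137355-137384, copy of DGCR6, plus strand: gtgacccagagaAATAAAgatgcctcagtg
AATAAA started 32, 22 and 30 bases before the 3′ ends of these 3 peaks.

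The contig peaks were spread over 47 of the 169 contigs of the assembly. Of these 47, 22 were unplaced and held 242 peaks, and 25 were unlocalised and held 266. A group of 21 contigs with at least 10 peaks each held 407 of the 508, and 7 contigs had 1 peak. The other 122 contigs, which together span 3.33 Mb, had none. Over all contigs there were 4.63 peaks per 100 kb, against 5.21 on the chromosomes, and peaks covered 0.714% of contig bases against 0.716% of chromosome bases.

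**Figure D1:**
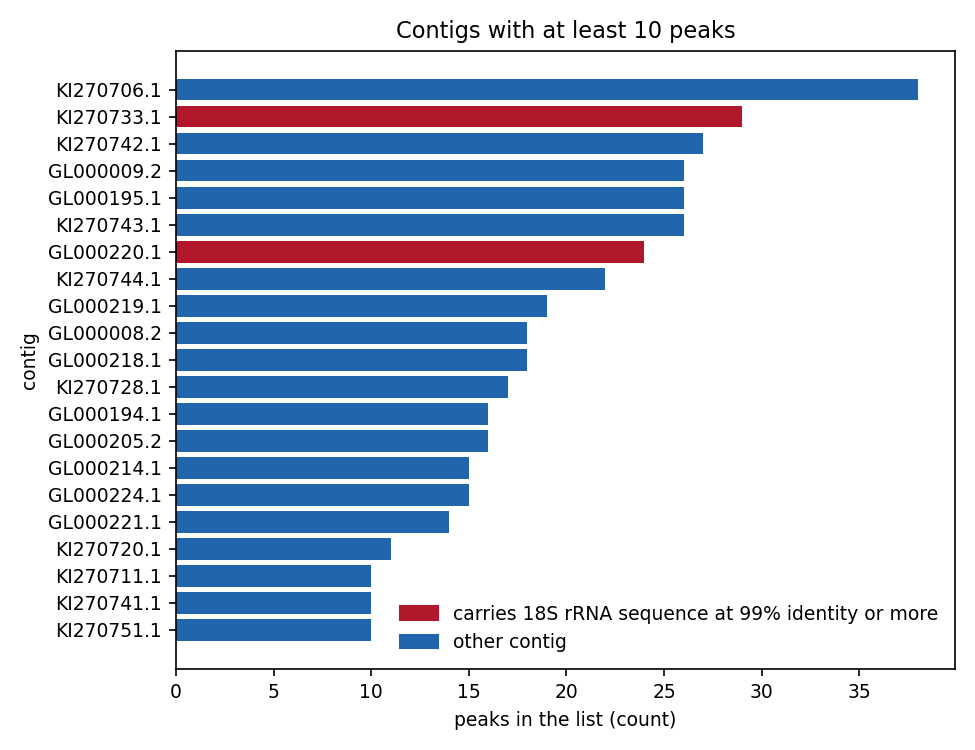
Number of peaks (horizontal axis, count) on each of the 21 contigs with at least 10 peaks, with the pair that carries ribosomal RNA sequence at 99% identity or more in red. KI270706.1 has 38 peaks, and the ribosomal contigs KI270733.1 and GL000220.1 have 29 and 24.

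The height of a peak is given as its pileup, the number of overlapping reads (extended to 100 bp) that the peak caller counted at the summit. It is also given as its fold enrichment, the ratio of that pileup to the local background with 1 added to each. The highest pileup in the whole list was 200. How duplicate reads were counted is not given in the sources used here, so that a pileup cannot be read as an amount of RNA. The contig peaks had a median pileup of 11 reads (quartiles 7 and 17, range 3 to 95, n = 508) and chromosome peaks one of 9 (quartiles 6 and 14, n = 153021). The median fold enrichment was 6.52 on contigs and 6.29 on chromosomes. The bulk of the contig peaks thus lay in the same range as chromosome peaks, and peaks are not replicates, so that no test was run on these medians. At a −log10 q of at least 10 there were 39.2% (35.0 to 43.5%) of contig peaks and 28.3% of chromosome peaks. The strongest contig peak was number 97 of the whole list by −log10 q, and 26 of the strongest 5000 peaks lay on contigs, 16 of them on KI270733.1 and GL000220.1.

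Ribosomal RNA sequence was found on 3 contigs, by matching the 18S, 5.8S and 28S sequences of chromosome 21. These 3 held 55 of the 508 peaks (10.8%, 8.41 to 13.8%), and 22.1% (16.9 to 28.4%) of the 199 with a −log10 q of at least 10. On KI270733.1, an unlocalised contig of chromosome 22, 18S lay at 125931 to 127799 and again at 171012 to 172880, both identical to the chromosome 21 sequence. On the unplaced GL000220.1, 18S lay at 109078 to 110946, the gene RNA18SN5, and at 153050 to 154918, listed as the pseudogene RNA18SP3, both at 99.9% identity. The 28S of the second copy was cut short by the end of the contig on each, at 88.4% of its length. The third, unplaced KI270442.1, held only a diverged 18S (91.0% identity) and 5.8S (90.4%) on its minus strand and no 28S match. Its 2 peaks, at 388864 to 389041 (fold enrichment 12.6, pileup 22) and at 389581 to 389683 (6.59, pileup 11), lay outside the ribosomal sequence. Both had ATTAAA on the plus strand with A-rich sequence behind it.

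The 53 peaks of the ribosomal pair stood far higher in pileup than the other 455 contig peaks, but not in fold enrichment. Their median pileup was 47 reads (quartiles 33 and 59) against 10 (7 and 14) on the other contigs. The local background was 6.76 reads per 100 bp against 0.55, and the median fold enrichment was 5.56 against 6.62. Of the 38 contig peaks with a pileup of at least 40, 35 lay on this pair. The pair also had 15.5 peaks per 100 kb, wider peaks (median 207 bp against 108 bp) and a higher GC content (52.0% against 37.6%).

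**Figure D2:**
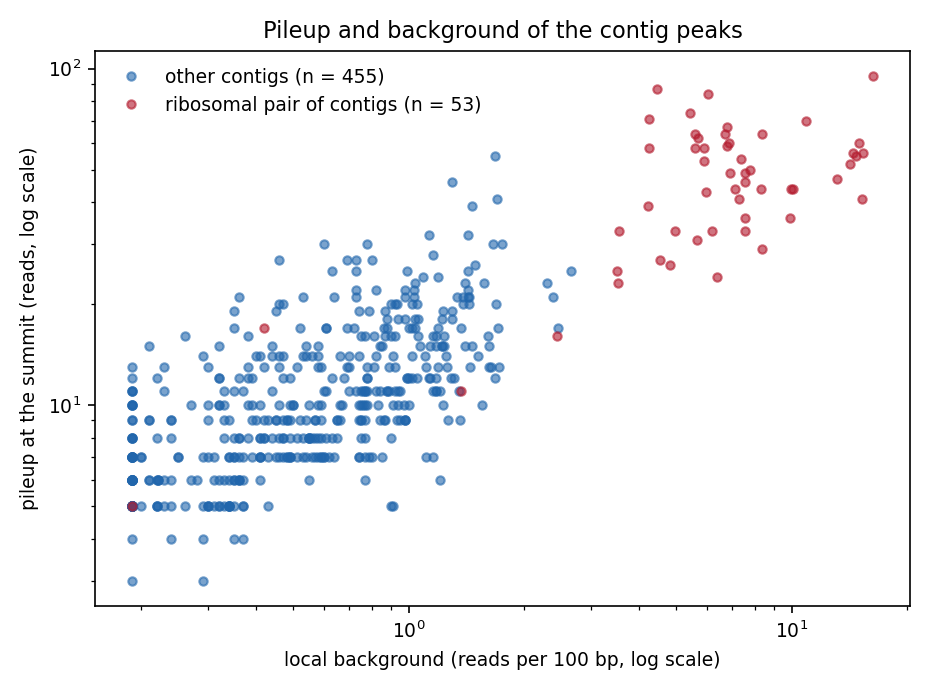
Pileup at the summit (vertical axis, reads, log scale) against the local background (horizontal axis, reads per 100 bp, log scale) for each contig peak, 53 on the ribosomal pair in red and 455 on the other contigs in blue. The red points lie mostly at the upper right, around a median background of 6.76, and the blue points around 0.55.

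Peaks were found along the whole ribosomal repeat and not at the end of 1 transcript. To place them on 1 scale, each was projected onto the repeat unit of chromosome 21, which is 44187 bp from the start of one 45S precursor to the start of the next. Of the 53 peaks, 20 lay in the transcribed part and 33 in the intergenic spacer, and 10 of the 20 were in a mature ribosomal RNA. By part, 4 lay in the 5′ external spacer, 4 in 18S, 4 in internal spacer 1, 1 in 5.8S, 1 in internal spacer 2, 5 in 28S and 1 in the 3′ external spacer. All 5 peaks in 28S were on KI270733.1, and 3 of the 4 in 18S were on GL000220.1. Median pileups were 56 (range 5 to 87) in the transcribed part and 41 (11 to 95) in the spacer, and median fold enrichments were 5.30 and 5.70.

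The repeats of chromosome 21 held 52 peaks of much the same height, with a median pileup of 41.5 (5 to 98), a background of 5.2 reads per 100 bp and a fold enrichment of 5.91. Of those, 18 were in the transcribed part and 34 in the spacer. The spacer thus held 62.3% of the contig peaks and 65.4% of those on chromosome 21. It makes up 69.9% of the length of a full repeat unit, but the second copy on each contig ended within 28S, before the spacer. The share of spacer in the sequence present was not computed, so these percentages cannot be set against each other.

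**Figure D3:**
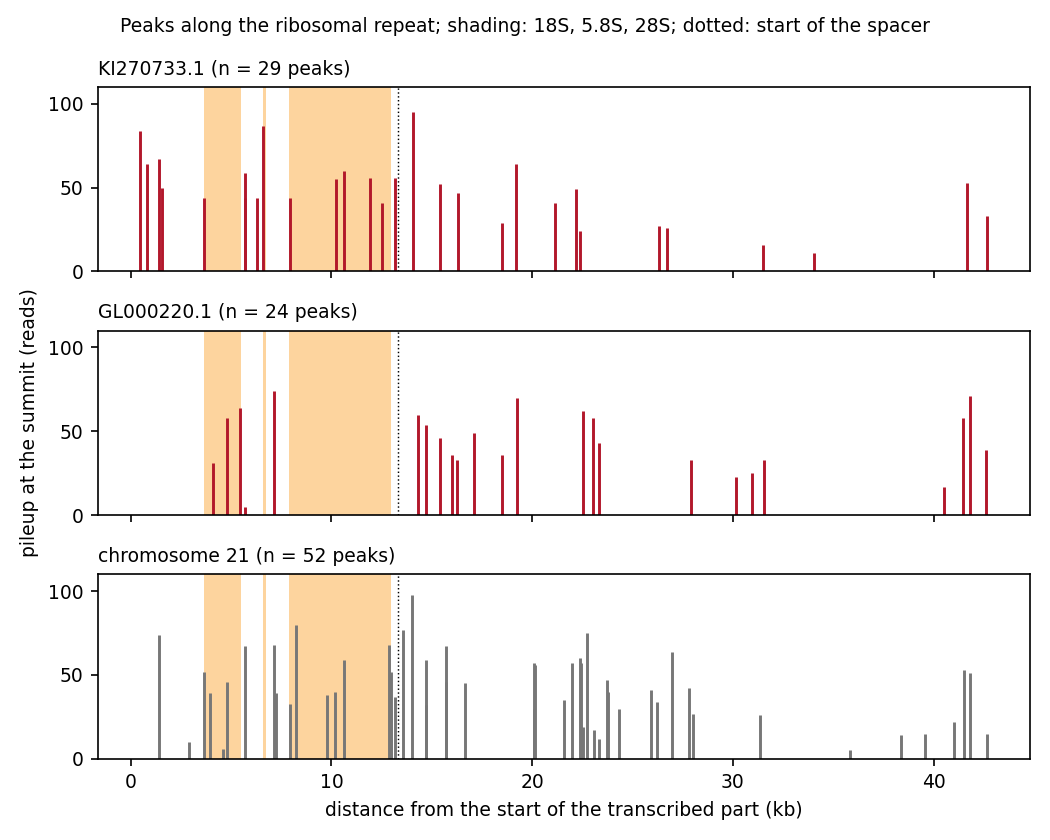
Pileup at the summit (vertical axis, reads) of each peak along the ribosomal repeat (horizontal axis, kb from the start of the transcribed part), for KI270733.1 (29 peaks), GL000220.1 (24 peaks) and chromosome 21 (52 peaks), with copies of a repeat on the same sequence drawn together. Shading marks 18S, 5.8S and 28S, and the dotted line the start of the intergenic spacer, in which 33 of the 53 contig peaks lie.

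The strongest peaks of the pair were in several parts of the repeat. On KI270733.1 the strongest was at 173447 to 174211, with its summit in 5.8S (pileup 87, fold enrichment 16.1, −log10 q 73.1). The next, at 167742 to 167923, lay near the start of the 5′ external spacer (pileup 84, fold enrichment 12.1). The third, at 122892 to 123820 (pileup 67, fold enrichment 8.76), lay further into that spacer, with its summit at position 1433 of the repeat unit. These are the peaks behind the first 3 sequences above, and none had a poly(A) signal or A-rich sequence on the strand of the repeat or on the other. On GL000220.1 the 3 strongest were at 146791 to 147174 in the intergenic spacer (pileup 71, fold enrichment 13.8), at 112501 to 112769 in internal spacer 2 (74, 11.7) and at 146501 to 146666 in the spacer (58, 11.3). Both of these spacer peaks had AAGAAA and A-rich sequence on the strand opposite to the ribosomal RNAs. A peak in 18S, at 110486 to 110965, was also among the 10 strongest of all contigs (pileup 64, fold enrichment 9.86) and had AGTAAA.

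Poly(A) signals were scarce on the strand of the ribosomal RNAs. A poly(A) signal here is any of 12 hexamers in the 100 bases before the 3′ end. They are AATAAA, its variant ATTAAA and 10 rarer forms, which were AAGAAA, then AATACA, then AATAGA, then AATATA, then AATGAA, then ACTAAA, then AGTAAA, then CATAAA, then GATAAA and then TATAAA. On that strand 4 of the 53 peaks had one (7.55%, 2.97 to 17.9%), and on the opposite strand 21 had one (39.6%, 27.6 to 53.1%). Sequence was called A-rich if the 50 bases after the 3′ end held a run of 6 A, or 7 A among 10 neighbouring bases. It followed 0 of 53 on the ribosomal strand, which allows a share of up to 5.66%, and 11 of 53 (20.8%) on the other. On chromosome 21, 5 of 52 repeat peaks had a signal and 2 of 52 had A-rich sequence on the ribosomal strand. From which strand the reads came is not in the list.

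Some places in the repeat had peaks in several copies and others in 1. There were 8 whole or partial copies of the repeat on the pair and on chromosome 21. The second copy on each contig ended within 28S, so that fewer than 8 copies could hold a peak in the spacer. Summits that fell within 100 bp of each other on the unit were counted as 1 place. Of 68 places, 39 had a peak in 1 copy only, 29 in at least 2, and the most was 4. The shared places held 66 of the 105 peaks of the pair and chromosome 21. At least 1 contig peak lay at 45 of the places, of which 7 had peaks on both contigs and 20 also had a peak on chromosome 21. The peak of pileup 84 in the 5′ external spacer stood alone at its place, although the 50 bases at its summit occurred 8 times in the genome. The place with 4 copies lay in internal spacer 1, with pileups from 5 to 67. How a read that aligned equally well to several copies was assigned is not given in the sources used here, so that the RNA of single copies cannot be told apart.

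The other 455 contig peaks were also mostly in duplicated sequence. For all 508, the 50 bases at the summit had another exact copy in the genome for 391 (77.0%, 73.1 to 80.4%), against 11.5% of chromosome peaks. A copy of the 100 bases around the summit at 95% identity or more was found on chromosomes 1 to 22, X or Y for 464 (91.3%, 88.6 to 93.5%), and at 100% identity for 219. Without such a copy anywhere, on chromosomes or other contigs, there were 15. In the other direction, 1.39% of chromosome peaks had an exact 50-base copy on a contig.

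A copy did not always have a peak of its own. At least 1 chromosomal copy overlapped a listed peak for 291 of the 464 (62.7%, 58.2 to 67.0%). Where the 100 bases had 2 to 20 exact copies (296 peaks), the contig peak was the only one among them in 156 (52.7%), and every copy had a peak in 60. For 121 peaks outside the ribosomal contigs the closest chromosomal copy itself had a peak, and the contig peak had the higher pileup in 57, the lower in 53 and the same in 11, with a median of 12 on each side.

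**Figure D4:**
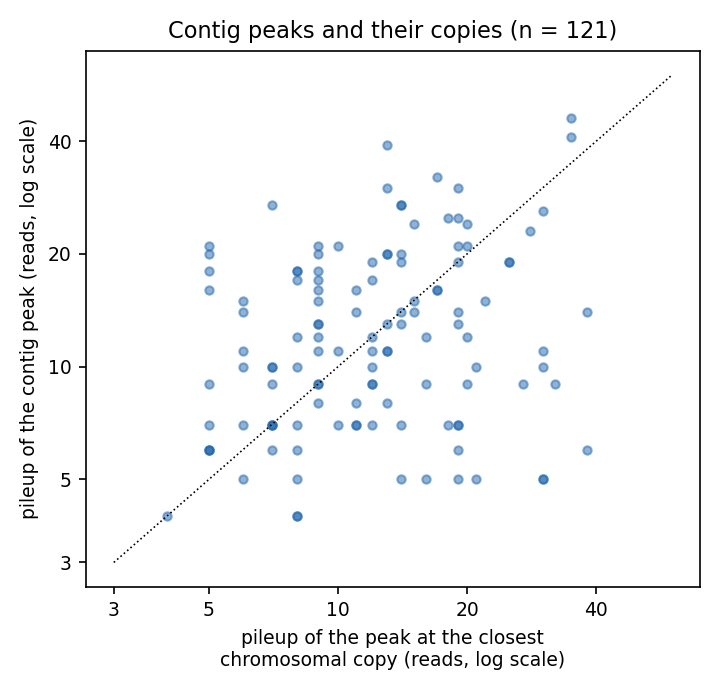
Pileup of the contig peak (vertical axis, reads, log scale) against the pileup of the peak at its closest chromosomal copy (horizontal axis, reads, log scale), for the 121 contig peaks outside the ribosomal contigs whose closest copy had a peak. The dotted line marks equal pileups, and 57 points lie above it, 53 below and 11 on it.

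Of the sequence features of these 455 peaks, poly(A) signals were more frequent than at chromosome peaks and A-rich sequence less frequent. Median GC content was 37.6% at these peaks, 40.3% at chromosome peaks and 52.0% on the ribosomal pair. Its part in the shares was not tested. The intervals treat the peaks as independent. As 75.2% of the 455 had another exact copy of the 50 bases at the summit, the intervals can be too narrow, and the differences were not tested. A poly(A) signal on either strand was present at 76.0% (71.9 to 79.7%), against 68.2% on the chromosomes and 47.2% (34.4 to 60.3%) on the ribosomal pair. AATAAA or ATTAAA started 10 to 40 bases before the 3′ end at 37.6%, 31.6% and 5.66%, in the same order. A-rich sequence on either strand followed 69.0% (64.6 to 73.1%), 77.1% and 20.8%. A stretch of 25 bases with at most 3 that were not A, the stricter definition, followed 11 of the 455 (2.42%, 1.36 to 4.28%), none of the 53 ribosomal ones and 7.26% of chromosome peaks. The tandem GGAAT repeat of some satellites, with at least 3 units on either strand, was in 0 of 508 contig peaks, which allows up to 0.591%.

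**Figure D5:**
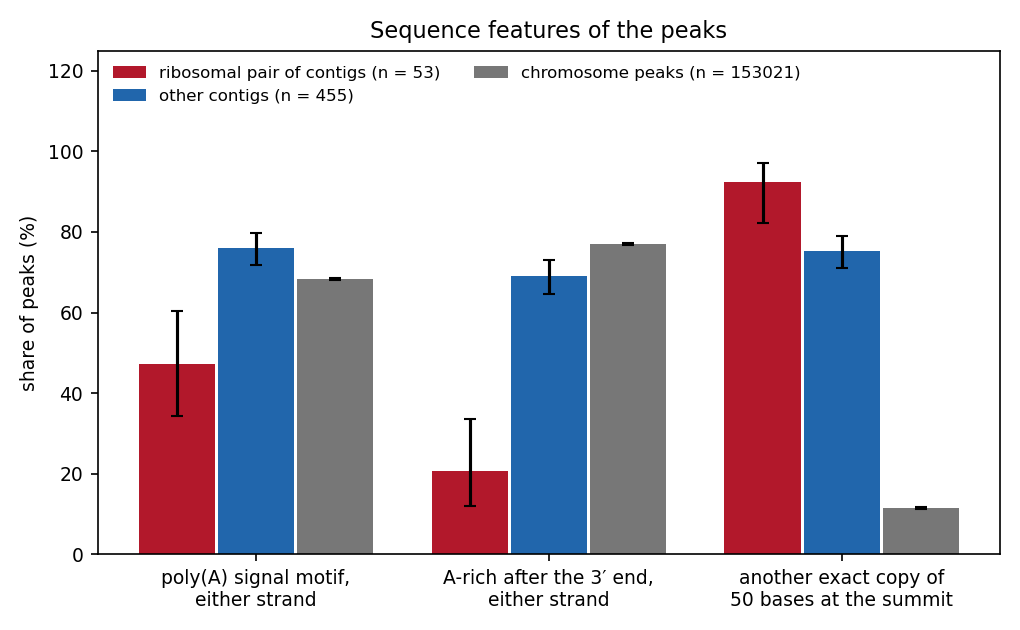
Share of peaks (vertical axis, %) with a poly(A) signal on either strand, with A-rich sequence after the 3′ end on either strand and with another exact copy of the 50 bases at the summit, for the ribosomal pair (53 peaks), the other contigs (455) and the chromosomes (153021). Bars are shares and error bars 95% Wilson intervals; the ribosomal pair has the lowest shares of the first pair of features (47.2% and 20.8%) and the highest of the last (92.5%).

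Gene models on the contigs were not available here, so genes were read at the closest chromosomal copy (GENCODE release 44). That copy was in a gene for 303 of 464 (65.3%, 60.9 to 69.5%). It lay near an annotated transcript end (from 200 bp before to 600 bp after it) for 44, in another exon for 40, in an intron for 219 and between genes for 161. In 219 cases another chromosomal copy was equally close, so that the gene is 1 of several candidates. Of 265 such peaks outside the ribosomal contigs, the gene was a long non-coding RNA for 156 (58.9%), a pseudogene for 82 (30.9%) and protein-coding for 26 (9.81%). Chromosome 21 held the closest copy of 160 peaks outside the ribosomal contigs (38.7%) and chromosome 22 that of 91. Where copies were equally close, the first by chromosome name and position was taken. Counts by chromosome, here and for single contigs below, can therefore depend on that order.

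A few unnamed long non-coding RNAs of chromosomes 21 and 22 accounted for much of this. ENSG00000290397, on chromosome 22, was the closest copy of 23 peaks on 10 contigs, with pileups from 5 to 25. ENSG00000286033 on chromosome 21 had 22 peaks on 10 contigs (pileup 5 to 39), ENSG00000278932 had 21 on 6 contigs (6 to 20), and TEKT4P2, annotated as a long non-coding RNA, had 21 on 5 (6 to 28). The unprocessed pseudogene ENSG00000278931 had 16 on 5 contigs. Copies of ANKRD20A21P, a pseudogene of the ankyrin repeat family on chromosome 20, had 7 peaks on 6 contigs at 97 to 99% identity. Of the 7 copies taken as closest, 0 had a peak. For 6 of the 7 another copy was equally close and is not included in that count. In ENSG00000278996, which overlaps the ribosomal repeats of chromosome 21, lay the closest copies of 29 peaks of the ribosomal pair, and in ENSG00000280441, also there, those of 3.

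Other genes were the closest copy of 3 to 6 peaks each. FRG1BP, a pseudogene of FRG1 on chromosome 20, was the closest copy of 4 peaks on GL000219.1 and KI270720.1 (pileup 15 to 19), and 3 of the copies had a peak. LINC01670, a long non-coding RNA of chromosome 21, had 4 peaks (9 to 20), and the pseudogene ENSG00000279208 had 6 (7 to 13). The pseudogenes ENSG00000270533 (pileup 5 to 6) and ENSG00000288262 (7 to 11) had 4 each. With 3 peaks each there were BAGE2, a pseudogene of the B melanoma antigen family (5 to 10), HERC2P4, a pseudogene of the ubiquitin ligase gene HERC2 (6 to 14), and ENSG00000228463 (6 to 14).

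Among protein-coding genes, MRPL23, NBPF1 and ZNF595 had at least 3 peaks, on 1 contig each. On KI270721.1, unlocalised on chromosome 11, the closest copies of all 4 peaks were in MRPL23 at 100% identity. The peak at 11688 to 11802, whose AATAAA is shown above, had a pileup of 19 and a fold enrichment of 14.8, and its copy near the transcript end, at chr11:1956500-1956599, had a peak of pileup 19 as well. The other 3 had copies in introns, pileups of 6, 10 and 11, and no peak at the copy.

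On KI270711.1, unlocalised on chromosome 1, 8 of 10 peaks had their closest copy in NBPF1, at 99 to 100% identity, with pileups from 10 to 15. The one at the transcript end, at 4505 to 4892, had a pileup of 14, as did the peak at its chromosomal copy. Of the 8, 7 were at intronic copies, and 2 of the 8 copies had a peak. The remaining 2 peaks were closest to NBPF26 and NBPF17P, of the same family.

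On KI270744.1, an unplaced contig with 22 peaks, 5 had their closest copy in ZNF595, a zinc finger gene at the end of chromosome 4, with pileups of 22, 17, 9, 24 and 17. The copies of the last pair had peaks, of pileup 20 and 12. Another 3 matched PSMD14-DT, a non-coding transcript divergent to a proteasome subunit gene on chromosome 2, at 95.2 to 97% identity. Among them was the peak with the highest fold enrichment of all contigs, at 107034 to 107373 (20.9, pileup 55), with ATTAAA on the plus strand, no A-rich sequence and no peak at the copy. The others of these 3 had pileups of 23 and 32. On KI270734.1, unlocalised on chromosome 22, 2 peaks matched DGCR6, the one at the transcript end with a pileup of 14 and one in an exon with 8.

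The pair of peaks in the second set of sequences was the strongest match outside the ribosomal contigs with a chromosomal peak. That on GL000205.2 at 130353 to 130507 had a pileup of 46 and a fold enrichment of 20.4, and that on GL000195.1 at 148221 to 148365 a pileup of 41 and a fold enrichment of 15.6. The closest copy of both was an intron of the long non-coding RNA ENSG00000278903 on chromosome 21, at 96% identity with 3 equally close copies, and a peak of pileup 35 lay there. The same gene held the closest copies of 19 peaks on these contigs.

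Of the 6 contigs with the most peaks, KI270733.1 is described above. ENSG00000290397, ENSG00000286033 and ENSG00000278932 were each the closest copy of peaks on the 4 contigs KI270706.1, KI270742.1, GL000009.2 and KI270743.1, and of none on GL000195.1. KI270706.1, unlocalised on chromosome 1, had 38 peaks with a median fold enrichment of 6.44 and a pileup of at most 30. Its closest copies lay on chromosome 22 for 19 peaks and on chromosome 21 for 16, with 8 in ENSG00000290397. KI270742.1 had 27 peaks, 22 of them closest to chromosome 21 and 9 in ENSG00000278932. GL000009.2, unlocalised on chromosome 14, had 26 peaks, 13 closest to chromosome 21 and 8 to chromosome 22, with 4 in TEKT4P2.

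GL000195.1 had 26 peaks, of which 23 were closest to chromosome 21, 11 of them in ENSG00000278903 and 9 in ENSG00000274333. KI270743.1 had 26 peaks, with 12 closest to chromosome 22 and 8 to chromosome 4, and a fold enrichment of at most 9.59. For KI270706.1 and GL000009.2, the chromosome of most closest copies was thus not the one to which the contig is assigned. KI270728.1, at 1872759 bp, had only 17 peaks, or 1.08 per 100 kb.

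Some contigs shared sequence at many of their peaks, at 95% identity or more over the 100 bases around the summit. Whole contigs were not aligned to each other. All 16 peaks of GL000194.1 had a copy on GL000218.1, and 12 of those copies had a peak. Of the 38 peaks of KI270706.1, 27 had a copy on GL000009.2, and 9 of these had a peak. Of the 29 on KI270733.1, 27 had a copy on GL000220.1, again 9 with a peak. On GL000224.1 and on KI270741.1 there were 8 peaks each with no chromosomal copy at 95% identity, and all 16 had a copy elsewhere on the contigs. The small contigs KI270467.1, with 4 peaks, and KI270466.1, with 2, had no chromosomal copy of any of their peaks.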

How the data were processed

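Poly(A) 3′ ends were sequenced from 8 libraries, 2 in each of 4 groups. The authors trimmed reads with BBDuk, mapped them with STAR 2.5.1b to GRCh38 with the ERCC sequences, merged all samples and called peaks with MACS2 2.1.1 on reads extended to 100 bp. Up to 20 alignments of a read were allowed. The deposited fold enrichment is a ratio, and the deposited −log10 p and −log10 q are values of the summit. The score column is a score the authors deposited with each peak, and it was not used.

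Pileup and background were recovered from the fold enrichment and the −log10 p with the formulas of MACS2, with a largest difference of 0.000147 in −log10 p. Members and lists were chosen with earlier results of these data known. The 100 bp around each summit were matched to GRCh38 with blastn 2.17.0 (word size 20). Copies were counted from 90% identity over 90% of the length, the main limit being 95%. Exact copies of 50 bases were counted for all peaks. Ribosomal RNAs were located with matches over at least 80% of their length at 85% identity. Sequences were read with pysam 0.24.0, and values were computed with Python 3.11.15, pandas 2.3.3 and scipy 1.17.1. The recovery of pileups, the reading of motifs and the counting of exact copies were tested on simulated data.

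Named singly were the 6 contigs with the most peaks, each contig with ribosomal sequence, the 10 strongest peaks, the 3 strongest on each ribosomal contig, and genes that hold one of those or at least 3 peaks. Of the 23 genes with at least 3 peaks, 1 is not reported here, nor are some sequences. Names outside the rule were chosen after their values were seen. The methods of the study give another dose for these lines than the labels do, and the dose of the labels is printed.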

Additional observations from a re-analysis of the deposited data

How the results depend on the processing

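No paired analysis was possible because the list holds 1 value per peak over all merged samples and no result comes from a test. The same absence of values per library means that no replicate could be left out. At a −log10 q of at least 10 the number of contig peaks was 199 and the ribosomal share 22.1%. At a −log10 q of at least 5 the median fold enrichment was 7.21 and the median pileup 13. The share with a poly(A) signal was 44.7% with AATAAA and ATTAAA alone and 64.2% in the 100 bases before the summit. For A after the 3′ end, the value the alternatives were set against was that of the stricter stretch of 25 bases, 2.17% of the 508 peaks. The share was 64.0% with 6 A in a row or 7 A of 10, called A-rich above. A chromosomal copy was found for 63.8% at 99% identity and 96.9% at 90%. Another exact copy was found for 58.3% over 100 bases in place of 50, an alternative chosen after seeing the data. Each alternative used another limit, list of hexamers or window than the reported value, and the causes of these shifts were not tested. Of 23 alternatives, 13 stayed within the interval of the reported value, or within 1.5 times a count, and 10 did not. Merging peaks less than 100 bp apart changed nothing, since the smallest gap was 100 bp. The planned share of peaks inside a gene of the contigs was replaced, after seeing the data, by the gene at the closest chromosomal copy, because the annotation used here has no contig genes. Motifs, A-rich stretches and copies describe sequence, and depth per library, which is unknown, limits every value.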
